A study of Mus musculus with 6 samples.

Results

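The genes described here are 35 mouse genes of glycolysis and of the response to low oxygen, named as a list and set in 6 roles: sugar and lactate transporters, enzymes of the upper and lower parts of glycolysis, kinases that regulate the pathway, the oxygen-sensing proteins, and genes that hypoxia is known to induce. They were found as the probes of the deposited signal table that carry a member's symbol. Of the 35 genes, 31 had at least 1 probe (48 probes), and 29 had a probe bright enough to be tested (39 probes), out of 9015 tested genes and 13064 tested probes in all. No probe here carried the symbols Gpi1, Eno1, Ldhb or Ankrd37, which were not analysed here, and the only probes of Slc16a1 and Bnip3 were not well above background on any of the 6 arrays. The samples are E14 mouse embryonic stem cells with Tip5 lowered by a mix of shRNA constructs (Tip5-shRNA, genotype given as Tip5-knockdown, 3 arrays), set against E14 cells that received a non-specific shRNA (control-shRNA, genotype given as wild type, 3 arrays). Both groups were electroporated with pSuper vectors, selected with antibiotics, kept on gelatin with LIF, and harvested at passage 3 after each transfection. All arrays come from this 1 line. The labels do not spell out whether each array is a separate transfection, so p-values measure the spread between these samples, which may in part be technical.

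Glycolysis splits glucose into pyruvate, and embryonic stem cells are known for running it at a high rate even with oxygen present. When oxygen falls, the prolyl hydroxylases (the Egln enzymes) stop marking the transcription factor subunit Hif1a for destruction by the Vhl ubiquitin ligase. Hif1a with its partner Arnt then binds short DNA elements with the core letters ACGTG or GCGTG, and it raises many glycolytic genes, glucose transporters and its own inhibitors Egln1 and Egln3. The gene Baz2a encodes Tip5, which targets the chromatin remodelling complex NoRC to ribosomal RNA genes. The comparison shows how these genes differed when Tip5 was lowered.

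Levels below are normalized log2 probe levels, differences are log2 Tip5-shRNA minus control-shRNA, and a difference of -1 is a level lower by a factor of 2. Levels of different probes are not comparable with each other. A gene stands by its brightest tested probe, and it passed where the limma p-value adjusted over all 13064 probes lay under 0.05. The replicate 3 arrays of both groups deviated from their group means together, so a second limma fit, blocked by replicate number, was run. It is given beside the fit of 2-group means where it changed a call. The correlations between arrays do not tell the pairing of replicates 1 and 2, which was taken from the sample titles.

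As a check of the samples, Baz2a read 5.21, 4.74 and 5.13 on the Tip5-shRNA arrays and 6.42, 7.51 and 5.99 on the control-shRNA arrays. Without overlap between groups, the difference of -1.62 (SE 0.39) did not pass in limma (adjusted p = 0.203, and 0.0810 with the replicate block). This probe lay near background, detected on 2 of 3 Tip5-shRNA and 3 of 3 control-shRNA arrays, and its difference was -0.54 with no background correction. All 10 embryonic stem cell markers were detected on every array. The log2 of their summed linear levels was 16.13 to 16.19 in Tip5-shRNA and 16.16 to 16.18 in control-shRNA cells. The brightest markers weigh most in such a sum. This sum hid opposite shifts of single markers in replicate 3 against the mean of replicates 1 and 2. In Tip5-shRNA and control-shRNA cells the shifts were -1.31 and -0.66 for Sox2, and 0.92 and 1.07 for Nanog. Replicate 3 stood apart in both groups, on a first principal component that held 52.8% of the variance. Its mean signal before normalization was also the brightest, at 1092 in Tip5-shRNA and 876 in control-shRNA cells, against 486 to 544 on the other 4 arrays. The log2 of the summed linear levels of 12 primitive endoderm markers was 14.39 in Tip5-shRNA replicate 3. It was 11.67 and 11.75 in the other 2 Tip5-shRNA arrays and 12.24 to 12.68 in control-shRNA arrays. Of 9 fibroblast markers with a probe, 2 to 3 were detected on any array. In bulk RNA, fewer cells of a type and less RNA per cell cannot be told apart.

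Aldoc, Pfkp and Egln3 had the most negative differences among the members, and they fell in the fit with the replicate block. In the fit of 2-group means no member passed in limma (0 of 29, with 9 at an unadjusted p under 0.05, all lower). In that fit 0.0776% of all 9015 genes passed, and 5.78% were lower at an unadjusted p under 0.05. With the replicate block 3 of 29 members passed as lower (10.3%), where 1.22% of all genes did, and 0 passed as higher, where 0.732% of all genes did. On the authors' processed values the fit with the block called 0 members and 0 genes in limma (12 and 1817 at an unadjusted p under 0.05), and with no filter on dim probes Egln3 did not pass. The groups of 3 arrays did not overlap for 11 of 29 members, all lower in Tip5-shRNA cells (37.9%), against 8.0% of all genes lower and 8.96% higher. For a single gene with groups of 3, the exact permutation test cannot go below p = 0.1 (two-sided), which is its value for these 11. Below 0 were 26 of 29 members, against 47.2% of all tested genes. The median difference was -0.31 over the members and 0.02 over all tested genes. The members were chosen with earlier results of these data known, so these shares are a description only. Of the 29 members, 27 were detected on all 6 arrays. The exceptions were P4ha1, detected on 2 Tip5-shRNA and 3 control-shRNA arrays, and Pfkfb3, on 1 and 2.

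**Figure D1:**
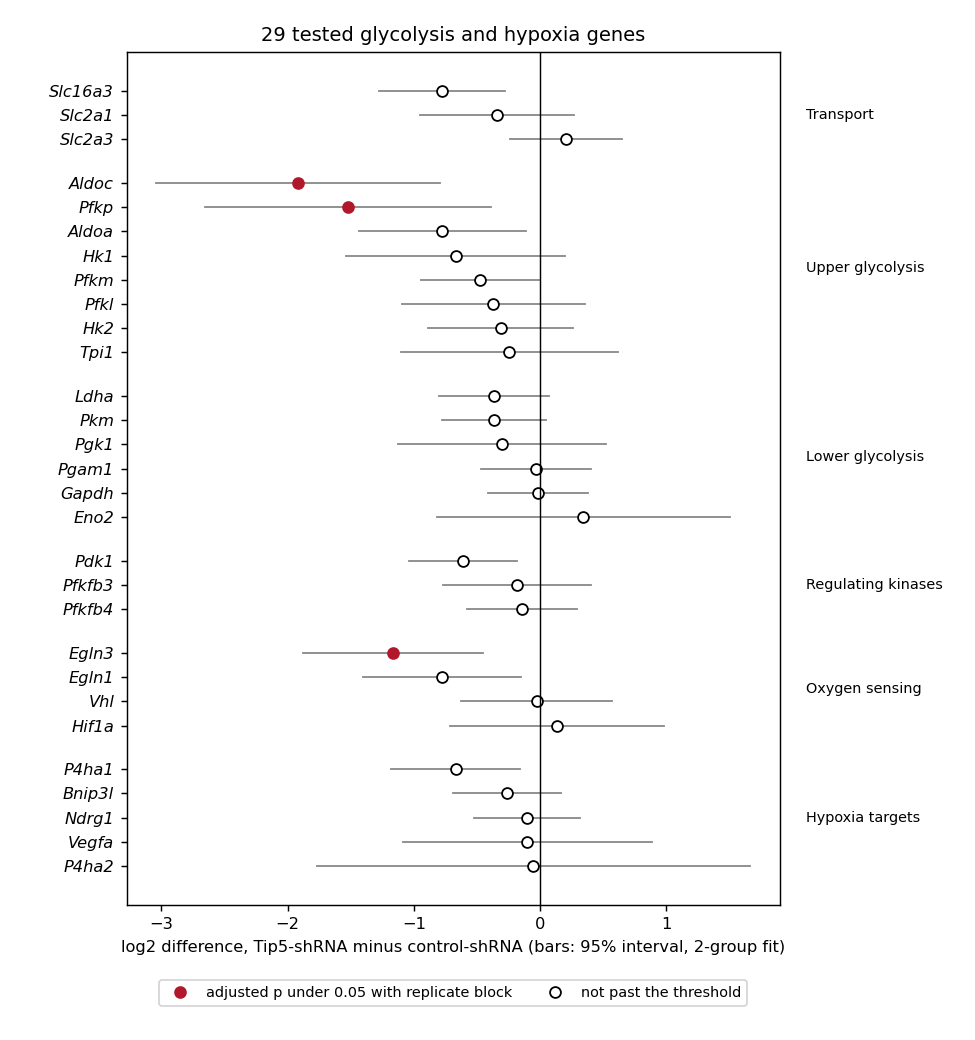
Log2 difference (x axis, Tip5-shRNA minus control-shRNA) of the 29 tested members by role, with the 95% interval of the 2-group fit as bars. Filled points are Aldoc, Pfkp and Egln3, which passed with the replicate block, and 26 of 29 points lie below 0.

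**Figure D2:**
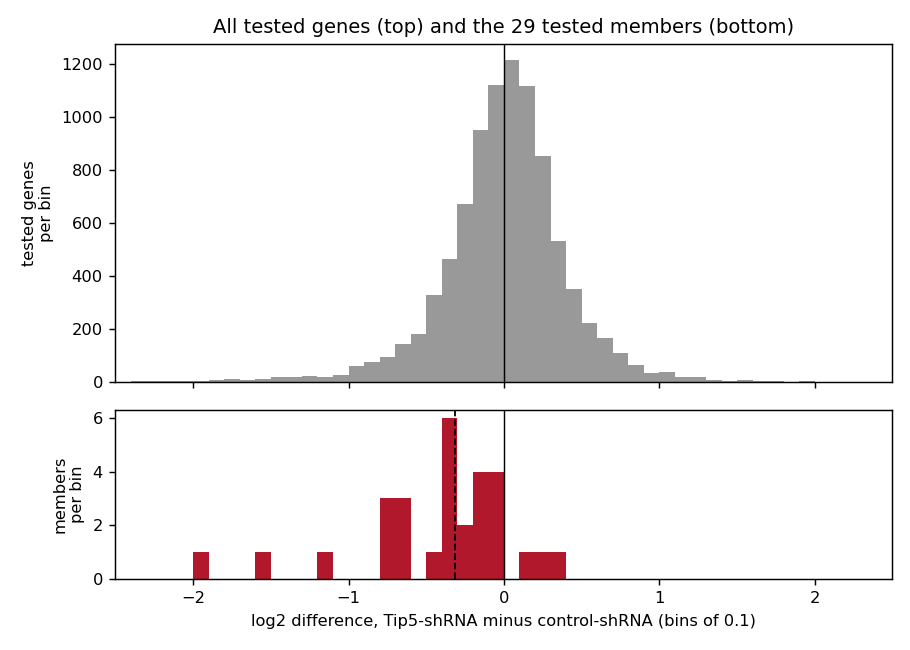
Log2 differences of all 9015 tested genes (top) and of the 29 tested members (bottom) in bins of 0.1, with gene counts on the y axes. The dashed line is the members' median of -0.31, and the median of all genes is 0.02.

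The upper part of glycolysis held the largest differences. All 8 tested enzymes from hexokinase to triosephosphate isomerase were below 0, each in all 3 replicate pairs, with a median of -0.57 and a range from -1.92 to -0.25. With the replicate block 2 of the 8 fell, and none passed with 2-group means. Over all tested genes 47.2% were below 0, 21.6% were lower in all 3 pairs, and 1.22% fell with the block. The members were chosen with earlier results of these data known, so the counts for this role are a description only.

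Aldoc, the brain-type fructose-bisphosphate aldolase, read 8.29, 8.74 and 7.39 on the Tip5-shRNA arrays and 10.65, 10.37 and 9.15 on the control-shRNA arrays. Every Tip5-shRNA array lay below every control-shRNA array, and replicate 3 was the lowest of its group in both. The mean was 8.14 ± 0.69 in Tip5-shRNA and 10.06 ± 0.80 in control-shRNA cells (SD, n = 3 each). The difference was -1.92 (SE 0.48, 95% interval -3.04 to -0.80), which is 26.5% of the control level. In limma the adjusted p was 0.217 with 2-group means and 0.0202 with the replicate block (SE 0.18). Aldoc lay among the lowest 0.355% of all tested genes by difference.

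Pfkp, the platelet-type phosphofructokinase, which catalyses the first committed step of glycolysis, read 10.28, 10.47 and 9.15 in Tip5-shRNA cells and 11.96, 11.94 and 10.57 in control-shRNA cells. The groups did not overlap, and replicate 3 lay below the mean of replicates 1 and 2 in both groups, by differences of -1.22 in Tip5-shRNA and -1.38 in control-shRNA cells. The pair differences of Pfkp were -1.68, -1.47 and -1.42, so the 3 pairs gave almost the same value. The difference was -1.52 (SE 0.48, limma adjusted p = 0.317), or 34.8% of the control level, and it passed with the replicate block (SE 0.13, limma adjusted p = 0.0184). A second tested probe of Pfkp gave -1.30 and also passed with the block (limma adjusted p = 0.0342). The third Pfkp probe was not detected on any array.

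Phosphofructokinase also has a muscle-type gene, Pfkm, and a liver-type gene, Pfkl, whose products join Pfkp in mixed tetramers. Pfkm read 9.86, 10.25 and 10.03 in Tip5-shRNA cells and 10.61, 10.67 and 10.29 in control-shRNA cells, without overlap. Its difference was -0.48 (SE 0.20), its 2 other tested probes gave -0.48 and -0.17, and it did not pass in either fit. Pfkl differed by -0.37 (SE 0.31) and did not pass either. The 95% intervals were -0.94 to -0.01 for Pfkm and -1.10 to 0.35 for Pfkl. The difference between Pfkp and its paralogs was not tested.

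Aldoa, the main aldolase of most tissues, read 11.38, 11.85 and 12.32 in Tip5-shRNA cells and 12.62, 12.35 and 12.90 in control-shRNA cells. The groups did not overlap, and replicate 3 was the highest of its group in both, the opposite of Aldoc. The difference was -0.78 (SE 0.28, limma adjusted p = 0.386, and 0.0894 with the block). The hexokinases, which trap glucose in the cell as its phosphate, differed by -0.67 (SE 0.37) for Hk1 and -0.31 (SE 0.24) for Hk2. Hk1 read 5.33, 5.86 and 5.27 in Tip5-shRNA cells and 6.34, 6.76 and 5.37 in control-shRNA cells, and its difference was -0.22 with no background correction. Hk1 pair differences were -1.01, -0.90 and -0.10, so the third pair was the smallest. Tpi1, triosephosphate isomerase, differed by -0.25 (SE 0.37), and its other tested probes gave -0.35 and -0.12. None of Aldoa, Hk1, Hk2 and Tpi1 passed in either fit.

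In the regions just before the annotated starts of the 3 genes that fell with the block, the core letters of the hypoxia element occur 1 to 3 times. The sequences are shown because Hif1a is known to act through these letters. They are the 250 bases before each RefSeq start, read 5′ to 3′ on the gene's strand (build GRCm38.p6, from RefSeq), with ACGTG or GCGTG on either strand in capitals. Pfkp lies at chr13:6648772-6649021 (minus strand), Egln3 at chr12:54203875-54204124 (minus strand), and Aldoc has starts at chr11:78322823-78323072 and chr11:78323948-78324197 (plus strand).
Pfkp: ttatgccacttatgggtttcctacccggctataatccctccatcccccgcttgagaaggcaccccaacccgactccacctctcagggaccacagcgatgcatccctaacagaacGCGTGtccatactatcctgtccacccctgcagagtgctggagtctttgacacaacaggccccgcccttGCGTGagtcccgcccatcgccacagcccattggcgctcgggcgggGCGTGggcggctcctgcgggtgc
Egln3: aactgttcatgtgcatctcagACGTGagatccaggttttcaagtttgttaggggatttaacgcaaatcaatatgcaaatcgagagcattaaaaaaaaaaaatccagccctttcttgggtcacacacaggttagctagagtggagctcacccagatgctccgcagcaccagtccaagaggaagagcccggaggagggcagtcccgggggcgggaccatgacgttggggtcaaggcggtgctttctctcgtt
Aldoc, first start: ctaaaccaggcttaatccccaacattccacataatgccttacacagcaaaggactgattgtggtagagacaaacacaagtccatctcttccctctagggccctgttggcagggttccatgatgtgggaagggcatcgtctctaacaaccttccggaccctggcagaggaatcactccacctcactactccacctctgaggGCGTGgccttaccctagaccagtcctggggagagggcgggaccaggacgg
Aldoc, second start: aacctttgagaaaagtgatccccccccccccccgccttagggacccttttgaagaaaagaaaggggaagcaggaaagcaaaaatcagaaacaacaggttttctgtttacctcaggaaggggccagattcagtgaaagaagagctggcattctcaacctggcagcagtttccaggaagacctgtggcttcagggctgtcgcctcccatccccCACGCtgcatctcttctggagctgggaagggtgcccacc
Pfkp held 3 matches, all GCGTG on its own strand, beginning at positions -136, -68 and -23 from the start. Egln3 held 1 (ACGTG at -229), and each Aldoc start held 1, on opposite strands. Of 46 promoters found for 32 of the 35 members, 36 (78.3%) held a match, against 38.6% of 32851 mouse promoters of the same length. The members' promoters were richer in G and C (median 61.8%, against 52.4%), and both motifs contain CG. The list was also drawn from genes of glycolysis and the hypoxia response, so a higher share could be built into it. The share is therefore a description only. A match is not a binding site, and nothing here measured Hif1a binding.

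The lower part of glycolysis had smaller differences. Of 6 tested enzymes 5 were below 0, with a median of -0.17, and none passed in either fit. Ldha, the lactate dehydrogenase that turns pyruvate into lactate, read 13.55, 13.41 and 13.37 in Tip5-shRNA cells and 14.04, 13.74 and 13.65 in control-shRNA cells. Pkm, pyruvate kinase, read 12.64, 12.56 and 12.81 in Tip5-shRNA cells and 12.97, 12.94 and 13.18 in control-shRNA cells. The groups did not overlap for either gene, and the 3 pairs of Pkm lay between -0.39 and -0.33. The differences were -0.37 (SE 0.18, limma adjusted p = 0.572) for Ldha and -0.36 (SE 0.18, limma adjusted p = 0.544) for Pkm.

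Gapdh, glyceraldehyde-3-phosphate dehydrogenase, read 14.73, 14.70 and 14.56 in Tip5-shRNA cells and 14.74, 14.75 and 14.55 in control-shRNA cells. The groups overlapped, and the difference of -0.01 had a 95% interval from -0.41 to 0.38. Its other probe gave -0.07. Pgam1, phosphoglycerate mutase, differed by -0.03 (SE 0.19), and Pgk1, phosphoglycerate kinase, by -0.30 (SE 0.35). Eno2, the neuronal enolase, was the member of glycolysis with a positive value, at 0.34 (SE 0.49, 95% interval -0.82 to 1.501). Its pair differences were 0.013, 0.81 and 0.20, so the pairs were unlike in size. A probe of Eno1b, annotated as a near-copy of the missing Eno1 and possibly reading both, differed by -0.01 and is not counted as a member.

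Among the kinases that set the direction of flow, Pdk1 had the clearest separation. Pdk1 phosphorylates pyruvate dehydrogenase and so keeps pyruvate out of the mitochondrial cycle. It read 9.23, 9.59 and 9.33 in Tip5-shRNA cells and 9.88, 10.11 and 9.99 in control-shRNA cells. No array of either group crossed into the other, and the pairs lay between -0.67 and -0.51. The difference was -0.61 (SE 0.18, limma adjusted p = 0.288, and 0.0747 with the block), so it did not pass. Pfkfb3, which makes the activator of phosphofructokinase, read 4.80, 5.36 and 4.72 in Tip5-shRNA cells and 5.20, 4.83 and 5.41 in control-shRNA cells, near background and overlapping. It differed by -0.18 (SE 0.25), and its relative Pfkfb4 by -0.14 (SE 0.19).

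The 3 tested transporters had values on both sides of 0, and none passed in either fit. Slc16a3, the exporter of lactate known as MCT4, read 5.63, 5.45 and 5.28 in Tip5-shRNA cells and 5.92, 6.51 and 6.25 in control-shRNA cells. All Tip5-shRNA values were below all control-shRNA values, yet the difference of -0.78 (SE 0.21) did not pass in limma (adjusted p = 0.253, and 0.0916 with the block). A second tested probe of Slc16a3 gave -0.30, and with no background correction the brighter one gave -0.24. Slc2a1, the glucose transporter GLUT1, read 12.37, 12.40 and 13.22 in Tip5-shRNA cells and 13.003, 12.90 and 13.11 in control-shRNA cells. Replicates 1 and 2 were lower in Tip5-shRNA cells and replicate 3 was not, so the groups overlapped. The difference of Slc2a1 was -0.34 (SE 0.26, limma adjusted p = 0.775). Slc2a3, the transporter GLUT3, was higher in all 3 pairs, by 0.11, 0.35 and 0.15, and did not pass (0.20, SE 0.19, limma adjusted p = 0.836).

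In the oxygen-sensing group Egln3 fell with the block, and the values of Egln1, Hif1a and Vhl did not pass in either fit. Egln3 read 7.83, 7.998 and 7.04 in Tip5-shRNA cells and 9.06, 8.88 and 8.42 in control-shRNA cells. The groups did not overlap, and each pair lay between -1.38 and -0.88. The difference was -1.16 (SE 0.30, limma adjusted p = 0.231), or 44.6% of the control level, and it passed with the block (SE 0.15, limma adjusted p = 0.0342). The second Egln3 probe was not detected on any array. Egln1, the main hydroxylase of Hif1a in most cells, read 5.69, 5.88 and 5.00 in Tip5-shRNA cells and 6.50, 6.28 and 6.11 in control-shRNA cells. These groups did not overlap either, but the difference of -0.78 (SE 0.27) did not pass in limma (adjusted p = 0.355, and 0.0808 with the block), and the other tested probe gave -0.42. With no background correction the difference of Egln1 was -0.24.

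Hif1a itself read 8.47, 8.21 and 7.08 in Tip5-shRNA cells and 7.82, 7.97 and 7.58 in control-shRNA cells. Its Tip5-shRNA arrays lay on both sides of the controls, above in replicates 1 and 2 and below in replicate 3. The difference was 0.13 (SE 0.36, 95% interval -0.72 to 0.98). Vhl read 6.04, 5.11 and 5.53 in Tip5-shRNA cells and 5.59, 5.61 and 5.59 in control-shRNA cells, with a difference of -0.03 (95% interval -0.62 to 0.57). Hif1a is regulated mainly through its protein, which the arrays do not read.

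Of the genes known to be induced by hypoxia, 5 were tested, all below 0, with a median of -0.11. P4ha1, a subunit of the collagen prolyl 4-hydroxylase, read 5.38, 4.84 and 5.38 in Tip5-shRNA cells and 6.05, 5.83 and 5.73 in control-shRNA cells. The groups did not overlap, and the difference of -0.67 (SE 0.22) did not pass in limma (adjusted p = 0.328, and 0.0952 with the block). With no background correction it was -0.18. Bnip3l, a mitophagy receptor, read 10.37, 10.43 and 10.59 in Tip5-shRNA cells and 10.80, 10.86 and 10.52 in control-shRNA cells. Its difference was -0.26 (SE 0.18), with replicate 3 reversed against the other pairs. Vegfa, the vascular growth factor, differed by -0.10 (SE 0.42) with -0.36 at its other tested probe, and Ndrg1, a stress-induced gene, by -0.11 (SE 0.18) with -0.44 at its other probe. None of these passed in either fit.

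**Figure D3:**
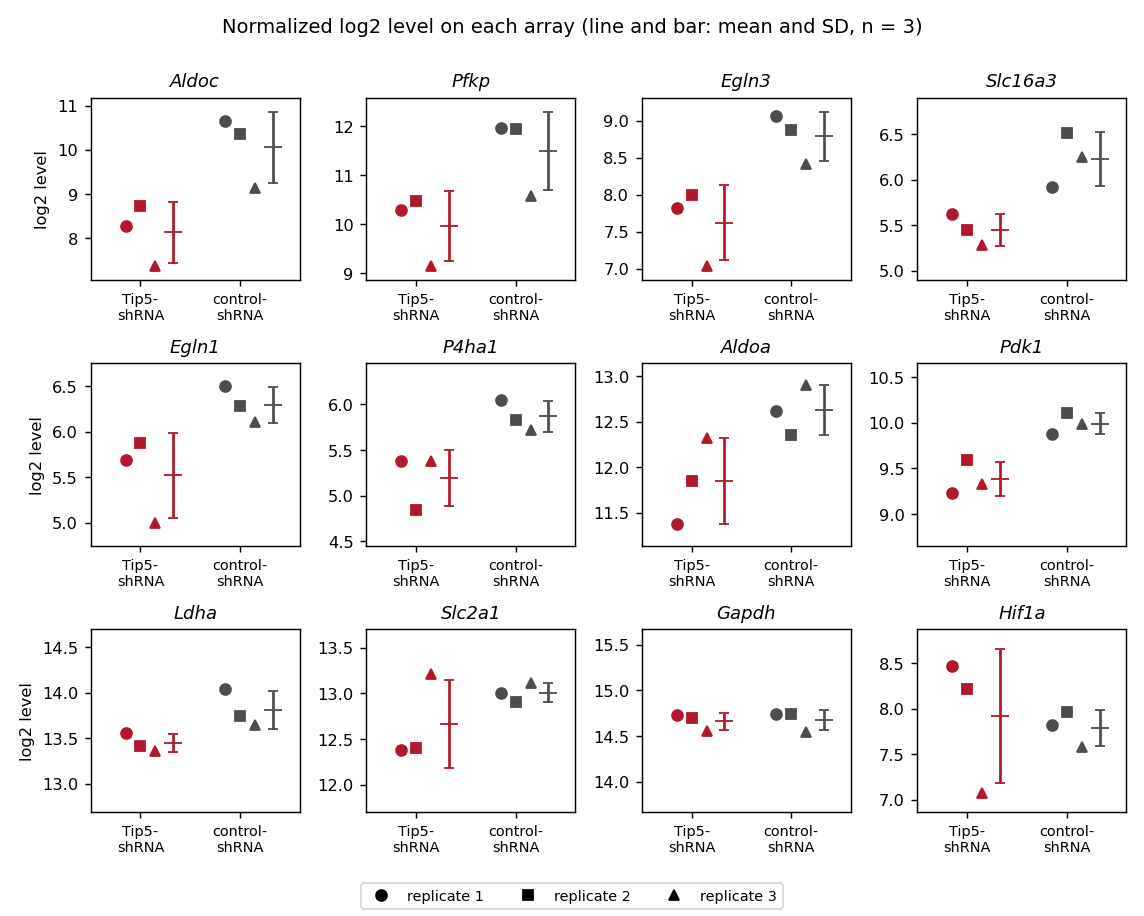
Normalized log2 level (y axis) on each array for 12 members, with Tip5-shRNA arrays at left and control-shRNA arrays at right, replicates by symbol, and the mean and SD beside them. In the first 9 panels the groups do not overlap, whereas Slc2a1, Gapdh and Hif1a overlap.

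P4ha2, named after its values were seen, differed most between replicate 3 and the other pairs. This second collagen hydroxylase subunit read 6.95, 6.82 and 9.55 in Tip5-shRNA cells and 7.75, 7.21 and 8.52 in control-shRNA cells. Both replicate 3 arrays lay above the other 4, and its pairs were -0.80, -0.39 and 1.03. The endoderm regulator Gata6 was also highest in Tip5-shRNA replicate 3, at 4.90, 5.13 and 9.84 in Tip5-shRNA cells and 6.42, 5.70 and 6.93 in control-shRNA cells. So was the basement membrane collagen Col4a2, at 7.09, 7.26 and 11.20 in Tip5-shRNA cells and 7.10, 7.06 and 8.41 in control-shRNA cells. Over the 7 tested endoderm markers, Tip5-shRNA replicate 3 exceeded the mean of replicates 1 and 2 by 2.17 to 4.82. Gata6, Dab2 and Col4a2 had the largest rises. Over replicates 1 and 2 only, the group difference was -0.60 for P4ha2, -1.05 for Gata6 and 0.10 for Col4a2. The part of endoderm-like expression in the P4ha2 values was not tested.

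**Figure D4:**
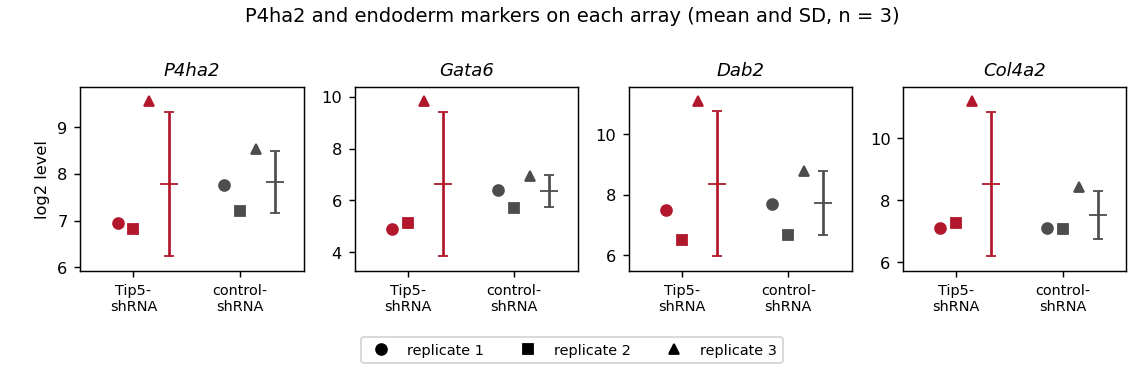
Normalized log2 level (y axis) of P4ha2 and the endoderm markers Gata6, Dab2 and Col4a2 on each array, Tip5-shRNA at left and control-shRNA at right, with mean and SD. In each panel Tip5-shRNA replicate 3 is the highest of the 6 arrays.

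Across the members, replicate 3 of each group lay below the other 4 arrays for 8 of 29 genes and above them for 2. The same count over all tested genes was not made, so these numbers do not set the members apart. The 8 were Hk2, Pfkl, Tpi1, Gapdh, Pgk1, Eno2, Hif1a and Vegfa, and the 2 were Slc2a1 and P4ha2. Over members, the pairs of replicates 1, 2 and 3 had median differences of -0.42, -0.39 and -0.26, with 25, 23 and 21 of 29 members below 0. In all 3 pairs 16 members were lower (55.2%, against 21.6% of all tested genes) and 2 were higher (6.90%, against 25.1% of all tested genes). With replicates 1 and 2 of each group only, the median was -0.41, and Aldoc (-1.997), Pfkp (-1.57) and Egln3 (-1.06) passed in limma without a block (adjusted p = 0.0231, 0.0174 and 0.0358). With the block, but without replicate 2 of both groups, 0 members passed in limma (9 at an unadjusted p under 0.05), and without replicate 1 of both groups 2 did, Pfkp and Aldoc.

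**Figure D5:**
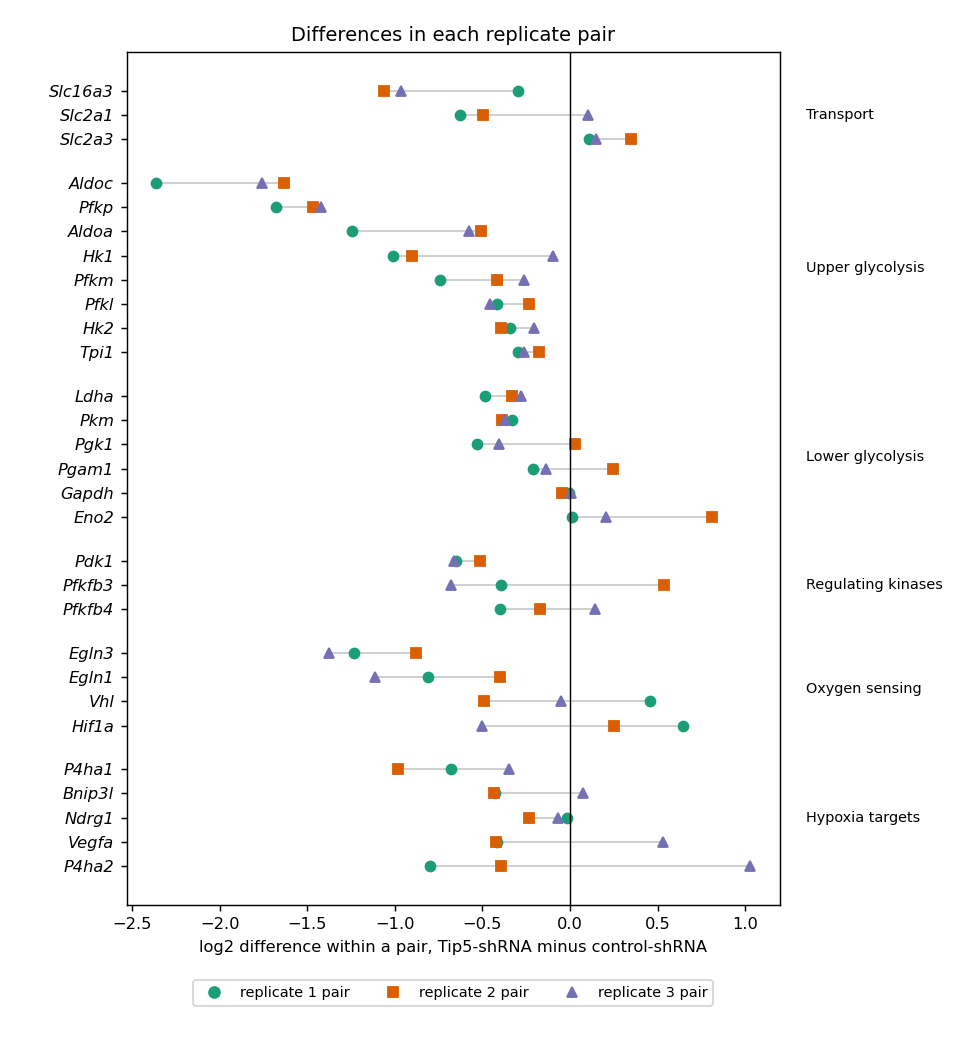
Log2 difference within each replicate pair (x axis, Tip5-shRNA minus control-shRNA) for the 29 tested members by role, with a symbol for each pair. Aldoc, Pfkp, Egln3 and 13 further members lie below 0 in all 3 pairs. P4ha2, Vegfa, Hif1a, Slc2a1, Bnip3l, Pfkfb4 and Gapdh change sides in the replicate 3 pair, Gapdh by very little.

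Further genes of the same pathways came from 4 lists written from general knowledge of them, with earlier results of these data known. Of 90 such genes 80 had a probe and 55 were tested, 28 below 0 and 27 above, with a median of -0.04. In the fit of 2-group means 0 of 55 passed in limma, with 7 at an unadjusted p under 0.05, against 1009 of all 9015 tested genes. Under the block 1 gene fell (1.82%) and another 1 rose, where 1.22% of all genes fell and 0.732% rose.

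Among 10 tested isoforms and neighbours of glycolysis, 6 were below 0. Ldhc, the lactate dehydrogenase of the testis, read 6.52, 7.37 and 5.93 in Tip5-shRNA cells and 9.52, 9.59 and 8.84 in control-shRNA cells. It was the pathway gene with the largest difference, -2.71 (SE 0.39), and fell with the block (limma adjusted p = 0.0119, and 0.0649 with 2-group means). With no background correction its difference was -1.72, and it passed in 12 of 13 settings with the block. Fbp2, the muscle form of fructose bisphosphatase, which works against glycolysis, differed by 1.01 (SE 0.98). Tip5-shRNA replicate 3 was again far above the rest for Fbp2, at 9.40, against 5.65 and 5.94 in the other Tip5-shRNA arrays and 5.10 to 6.83 in control-shRNA arrays. Without it the difference of Fbp2 was -0.20.

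Of 14 tested genes of pyruvate use and the pentose phosphate branch, 9 were below 0 and none passed in either fit. The largest differences there were -0.57 (SE 0.35) for Pdk4, a paralog of Pdk1, and 0.51 (SE 0.26) for Dlat, a subunit of the pyruvate dehydrogenase complex.

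Of the other genes of the HIF pathway, 8 of 11 tested were above 0, with a median of 0.09, and 1 rose with the block. Cited2, which competes with Hif1a for the coactivators CBP and p300, read 7.33, 6.97 and 6.48 in Tip5-shRNA cells and 6.15, 5.83 and 5.72 in control-shRNA cells. It did not overlap between groups and rose with the block by 1.02 (SE 0.15, limma adjusted p = 0.0411, and 0.224 with 2-group means). Cited2 passed in 9 of 13 settings with the block (limma adjusted p = 0.0157 to 0.167), and its difference was 0.41 with no background correction. Elob, the elongin B subunit of the Vhl ligase, had 3 tested probes with differences of 0.87, 0.78 and 1.16. The first, its brightest, and the second did not pass in either fit (limma adjusted p = 0.0926 and 0.0906 with the block), whereas the third passed with the block (limma adjusted p = 0.0444).

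Of 21 further tested hypoxia targets, 11 were below 0 and 10 above, and none passed in either fit. Ddit4, an inhibitor of mTORC1, read 9.06, 9.52 and 9.93 in Tip5-shRNA cells and 10.997, 10.76 and 10.23 in control-shRNA cells. Here too the groups were separate, and the difference was -1.16 (SE 0.29, limma adjusted p = 0.227, and 0.105 with the block), narrowing to -0.31 in the third pair. Tfrc, the transferrin receptor, differed by -0.74 (SE 0.24, limma adjusted p = 0.330, and 0.0548 with the block).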

How the data were processed

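Expression of E14 mouse embryonic stem cells was read on 6 Illumina bead arrays, 3 per group. The authors deposited, per the file headers, a probe signal with its detection p-value on every array. This deposited intensity is linear, and its lowest value on every array is far above 0, so background had not been taken off. The submitters' processing notes list GenomeStudio 2011.1 and do not say what it did. The authors also deposited a processed intensity, which is the same signal with a constant subtracted, a factor applied and a floor of 1. Its medians were 14.6, 15.7 and 19.2 on the Tip5-shRNA arrays and 16.2, 16.4 and 16.6 on the control-shRNA arrays. Its means were nearly equal, at 538.3 to 538.6 over the 6 arrays. How the constants and factors were chosen is not stated. The processed intensity was used only as an alternative, floored at 16.

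In R 4.3.3, limma 3.58.1 was used for background correction (neqc: normexp from detection p-values, offset 16), quantile normalization and log2. Probes with detection p under 0.05 on at least 3 of 6 arrays were tested (13064 of 25697, 50.8%). Each array had 48.5% to 52.3% of probes detected. The number of arrays limits the precision. Symbols came from the platform annotation and were updated by Entrez identifier (23962 of 23978 probes). Another 1719 probes had no symbol.

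Groups were compared with lmFit and eBayes, with Benjamini-Hochberg adjustment over all tested probes. The arrays were paired by the replicate numbers in the sample titles. Same-numbered arrays correlated at 0.44, 0.52 and 0.71 in their deviations from the group means (replicates 1, 2 and 3). Differently numbered arrays correlated at 0.46 (Tip5-shRNA 2 with control-shRNA 1) and 0.37 (Tip5-shRNA 1 with control-shRNA 2), and at -0.62 to -0.52 where 1 of them was replicate 3. The correlations thus set replicate 3 apart and do not tell the pairing of replicates 1 and 2. The fit of 2-group means was also run on simulated data with independent errors and no replicate effect. That run does not bear on the fit with the block. The members and lists were chosen with earlier results of these data known. Values per array are given for members that passed in either fit, for the 2 of largest difference per role, and for Slc2a1, Gapdh, Hif1a and Vhl. Aldoa, Hk1, Pfkm and P4ha2 were added to these after their values were seen. In the other lists the genes that passed and the 2 of largest difference were named. No protein sequences were used here.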

Additional observations from a re-analysis of the deposited data

How the results depend on the processing

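No member passed with 2-group means under any of the 6 alternatives to background, offset, normalization or filter, with probes averaged per gene, under the authors' values, or without any single array. Over all genes the count was 7, and 2 with no background correction, 23 with offset 50, 20 with cyclic loess, 4 with median scaling, 0 with no filter (limma, where 1356 had an unadjusted p under 0.05), 4 with the strict filter (all 6 arrays), 1 under the authors' values, 23 with probes averaged, and 0 to 81 without 1 array (0 without replicate 1 or 2 of either group, with 598 to 772 at an unadjusted p under 0.05, 32 without control-shRNA replicate 3, 81 without Tip5-shRNA replicate 3). It was 176 with the replicate block and 398 with replicate 3 as a batch term, each with 3 members called, 428 with replicates 1 and 2 only (3 members), 502 with these and the block (4 members) and 898 with array weights (5 members). The cause of these shifts was not tested. The members' median stayed between -0.52 and -0.23 without 1 array and was -0.41 with replicates 1 and 2 only.

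Joined to the replicate block, in choices made after seeing the data, genes and members called numbered 811 and 9 without background correction, 696 and 5 with offset 50, 367 and 3 with cyclic loess, 350 and 3 with median scaling, 46 and 2 with no filter, 354 and 4 with the strict filter, 0 and 0 with the authors' values (limma, where 1817 and 12 had an unadjusted p under 0.05), 547 and 3 with array weights, 43 and 2 without replicate 1 of both groups, and 9 and 0 without replicate 2 of both groups (limma, where 1306 and 9 had an unadjusted p under 0.05). Aldoc, Pfkp and Egln3 were lower in every setting run. Over the settings with the block the limma adjusted p was 0.00106 to 0.0632 for Aldoc, 5.67e-04 to 0.0771 for Pfkp, 0.00451 to 0.104 for Egln3, 2.90e-04 to 0.0582 for Ldhc and 0.0157 to 0.167 for Cited2.

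Some uncalled differences changed sign. With no background correction Vhl was 0.00079 and P4ha2 0.063. With median scaling Pgam1 was 0.027, Vhl 0.0052, P4ha2 0.032 and Eno1b 0.068, and with the authors' values Eno1b was 0.039. With replicates 1 and 2 only, with or without the block, Pgam1 was 0.018 and Pfkfb3 0.070. Without 1 array the ranges that crossed 0 were -0.16 to 0.14 for Eno1b, -0.051 to 0.81 for Eno2, -0.20 to 1.68 for Fbp2, -0.080 to 0.039 for Gapdh, -0.14 to 0.55 for Hif1a, -0.94 to 0.42 for P4ha2, -0.13 to 0.057 for Pgam1, -0.56 to 0.0093 for Pgk1, -0.56 to 0.075 for Tpi1, -0.58 to 0.22 for Vegfa and -0.27 to 0.20 for Vhl. None of these passed. With no background correction, differences that kept their sign shrank by over 1.5 times to -0.24 for Slc16a3 and Egln1, -0.22 for Hk1, -0.18 for P4ha1, -0.14 for Pgk1, -0.075 for Pfkfb4, -0.046 for Pfkfb3, -0.043 for Ndrg1, 0.18 for Eno2, -0.0067 for Eno1b, -0.54 for Baz2a, -1.72 for Ldhc, -0.29 for Pdk4, 0.61 for Fbp2, 0.20 for Dlat and 0.41 for Cited2.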
